A study of Mus musculus with 4 samples.

Results

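The genes described here encode 9 proteins of the BCL2 family and APAF1, the scaffold on which caspases are activated once mitochondria release cytochrome c. The 10 genes were taken by symbol from a table of 38588 gene models by a rule that holds no measured value, although earlier results of these data were known when they were chosen. Of these, 3 are anti-apoptotic (MCL1, BCL2A1 and BCL2L2), 2 are effectors that open the outer mitochondrial membrane (BAX and BAK1), 4 are BH3-only genes (BCL2L11, BAD, BBC3 and BMF), and APAF1 acts downstream. RNA sequencing compared 2 libraries of RbLoTem cells with 2 libraries of RbHiTn cells. RbLoTem cells were sorted from mouse spleen as CD4+ FoxP3- CD45RbLo CD44+ CD62L- effector/memory T cells, and RbHiTn cells as CD4+ FoxP3- CD45RbHi CD44- CD62L+ naive T cells. Both came from resting mice of strain C57BL/6-Foxp3tm1Flv/J, which carry a FoxP3 reporter allele, and no source used here gives their age. Both were stimulated for 72 hours on plate-bound anti-CD3 antibody (2 μg in the labels), so neither group is unstimulated. The labels of 1 library in each subset end in o, and no source used here says what this marks.

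In the mitochondrial route to cell death, anti-apoptotic proteins such as MCL1 hold BAX and BAK1 in check. BH3-only proteins are induced or released by stress or growth factor loss and bind the anti-apoptotic proteins, and some also activate BAX and BAK1 directly. In T cells the BH3-only protein BIM, the product of BCL2L11, is known for its part in thymic deletion and in the contraction of a response, while MCL1 is needed for survival of naive and activated T cells.

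The files list human gene models although the cells were from mice, so mouse transcripts that differ in sequence can be counted poorly. Levels are therefore compared mainly between libraries for the same gene. Exon reads numbered from 3795660 to 5873287 per library. No source used here says whether replicate libraries stem from separate animals or cultures, and the spread behind the p-values may therefore be technical alone. In bulk RNA, fewer cells with a transcript and less transcript per cell cannot be told apart.

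Promoters of the mouse genes are shown for the 2 BH3-only genes that were lower in RbLoTem cells (Bcl2l11 and Bbc3). Those of Mcl1 and Bax, the anti-apoptotic and pro-apoptotic members with the highest measured levels, are also shown. Each is 300 bases long, from 250 before to 50 after an annotated start in RefSeq (build GRCm38.p6), written 5′ to 3′ on the strand of the gene. Capitals mark matches, on either strand, to the FOXO core TGTTTAC, the E-box CACGTG or the GC box GGGCGG. For Bcl2l11 and Bbc3, which have 2 and 3 windows, the window that holds a FOXO core is shown, a choice made after the motifs were counted. The windows are chr2:128125788-128126087 (plus strand) for Bcl2l11, chr7:16310011-16310310 (plus strand) for Bbc3, chr3:95658471-95658770 (plus strand) for Mcl1 and chr7:45466849-45467148 (minus strand) for Bax.
Bcl2l11: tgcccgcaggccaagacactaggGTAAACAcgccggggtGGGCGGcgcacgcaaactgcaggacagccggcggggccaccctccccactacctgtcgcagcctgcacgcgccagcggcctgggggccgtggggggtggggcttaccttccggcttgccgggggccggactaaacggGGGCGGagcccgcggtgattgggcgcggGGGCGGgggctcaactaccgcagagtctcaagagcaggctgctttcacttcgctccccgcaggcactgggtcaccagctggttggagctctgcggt
Bbc3: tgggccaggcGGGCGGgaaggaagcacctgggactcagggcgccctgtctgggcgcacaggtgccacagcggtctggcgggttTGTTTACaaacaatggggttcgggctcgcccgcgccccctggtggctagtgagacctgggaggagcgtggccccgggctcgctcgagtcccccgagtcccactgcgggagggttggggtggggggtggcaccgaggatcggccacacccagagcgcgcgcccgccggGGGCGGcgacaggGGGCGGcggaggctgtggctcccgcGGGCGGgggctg
Mcl1: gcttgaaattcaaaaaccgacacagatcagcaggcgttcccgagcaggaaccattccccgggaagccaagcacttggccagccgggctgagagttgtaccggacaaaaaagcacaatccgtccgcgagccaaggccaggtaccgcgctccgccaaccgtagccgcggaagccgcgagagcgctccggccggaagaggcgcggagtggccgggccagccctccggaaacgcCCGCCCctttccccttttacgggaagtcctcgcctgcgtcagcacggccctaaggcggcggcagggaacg
Bax: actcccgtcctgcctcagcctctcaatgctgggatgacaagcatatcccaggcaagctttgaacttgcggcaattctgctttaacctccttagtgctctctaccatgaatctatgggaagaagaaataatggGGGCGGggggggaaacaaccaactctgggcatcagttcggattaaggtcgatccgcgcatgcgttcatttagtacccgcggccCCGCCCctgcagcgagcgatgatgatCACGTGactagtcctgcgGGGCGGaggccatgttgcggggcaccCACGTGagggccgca

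All 10 members had a mouse promoter in the table, with 19 windows in all, since some genes have several starts and BCL2A1 matched 4 mouse genes. The FOXO core was found in 2 of the 19 windows, those of Bcl2l11 and Bbc3 shown above, and in 3.65% of all 32851 windows. The E-box was in 2 of the 19 windows, that of Bax, which holds 2 matches, and a Bbc3 window that partly overlaps the one shown, and in 7.15% of all windows. The GC box was in 15 of the 19 windows and in 35.7% of all windows. Of these 15 windows 4 belong to the Bcl2a1 copies, and several others belong to the same gene, so they are not independent. No matches of different motifs overlapped in the 4 sequences shown. A match is a description of the letters, and binding was not measured.

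Of the 10 members, 7 had enough reads to be tested, and 6 of these differed between the subsets at an adjusted p under 0.05 by edgeR's quasi-likelihood test. MCL1, BCL2L11 and BBC3 were lower in RbLoTem cells, and BAX, BCL2L2 and APAF1 were higher. BCL2A1 was tested and not called, and BAK1, BAD and BMF had too few reads. Across all 6539 tested models, 24.3% were called higher and 23.6% lower, so that a difference between the subsets was common among all genes. With DESeq2, 2 members were called higher (BAX and BCL2L2) and 2 lower (MCL1 and BCL2L11), against 17.1% and 15.2% of all tested models. The median log2 fold change was -0.57 over the 7 tested members and -0.012 over all tested models. The former is simply the value of BCL2A1, the tested member that was not called. With 3 members called higher and 3 lower, it does not describe a shift shared by the members.

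Genes listed as markers of other cells moved with the members that were lower in RbLoTem cells. Of 12 B cell markers 5 were tested and all 5 were lower. Their summed RPKM was 8.13 and 9.29 in RbHiTn cells and 0.278 and 0.303 in RbLoTem cells. CD79A had 29 and 26 reads against 0 and 0, MS4A1 and BLK also had 0 reads in both RbLoTem libraries, and CD79B, CD22 and FCRLA had 0 reads in all. Of 12 genes listed as dendritic cell and monocyte markers 6 were tested (HLA-DQA1, HLA-DRB1, CD74, IRF8, SPI1 and CTSS), and all 6 were lower. The summed RPKM of the list was 24.5 and 18.4 against 2.49 and 2.83, while CSF1R, LYZ, CD68, ITGAX and CD14 were at 0 in all libraries. The 6 tested genes are not particular to these cells, and which cells their reads came from was not tested. Of the genes listed as NK and CD8 T cell markers EOMES alone had reads (log2 fold change -4.40, standard error 0.33), and CD8A, CD8B, NCR1 and GZMB were at 0. Which cells the EOMES reads came from was not tested either. The T cell markers had a summed RPKM of 284 and 273 against 218 and 230. Among 11 of them 8 were tested and 3 were lower, CD3G (log2 fold change -1.10, standard error 0.10), CD3E (-0.93, standard error 0.15) and LCK (-0.26, standard error 0.05), with CD2 and CD28 at 0 and too few reads of CD4 for the test. The counts of these marker lists are to be read against the 23.6% of all tested models called lower by edgeR. The part of other cells in the lower values of BCL2L11, MCL1 and BBC3 was not tested.

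**Figure D1:**
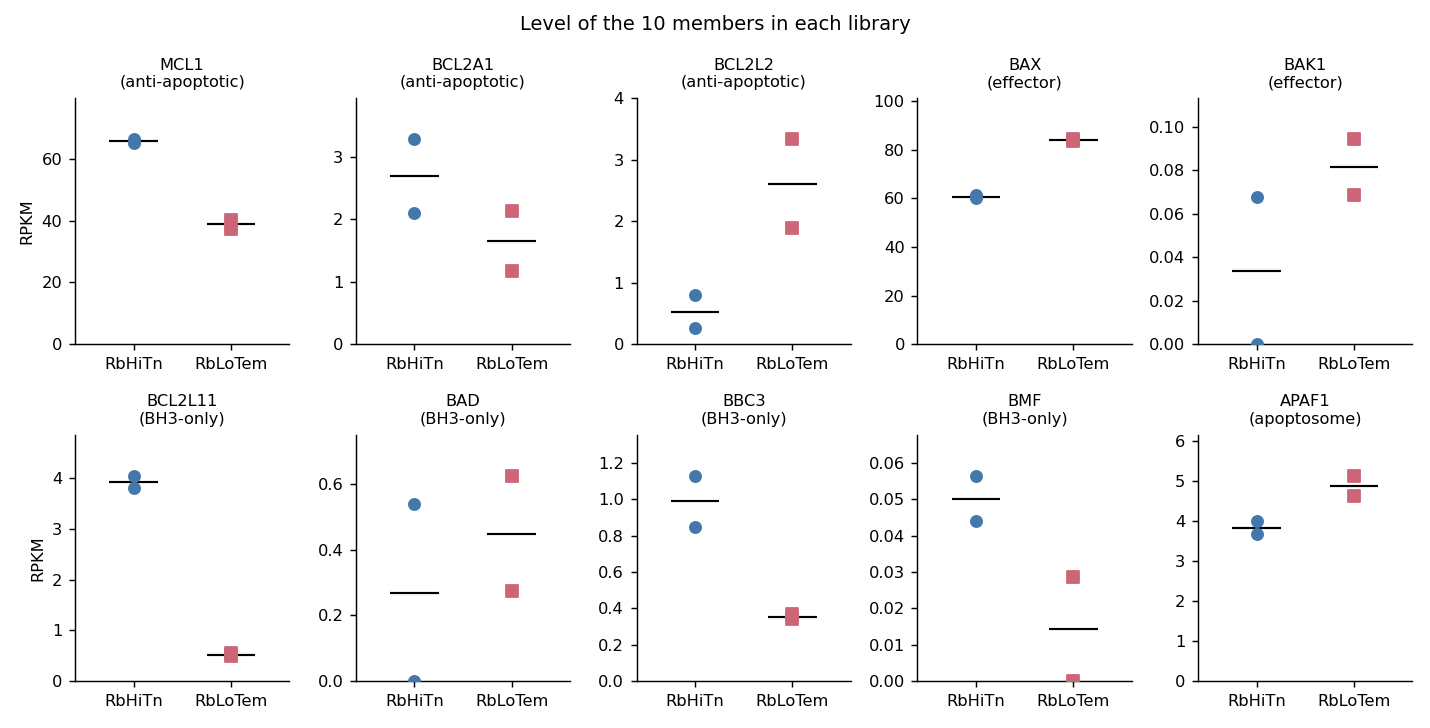
RPKM of each member in each library (points, 2 per subset, with the mean as a line) on linear axes that start at 0 and differ between panels. MCL1, BCL2L11 and BBC3 sat lower in both RbLoTem libraries than in both RbHiTn libraries. BAX, BCL2L2 and APAF1 sat higher, and BCL2A1 and BAD overlapped. BMF also sat lower and BAK1 higher, on too few reads for the test, so such a separation can arise on almost no reads. How many of all models separate in this way was not counted.

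MCL1 and BAX had by far the highest RPKM of the members, and their order by RPKM was exchanged between the subsets. How well mouse reads match each human model can also shape this order, so it may not be that of the transcripts. RPKM is the number of exon reads scaled to exon length and to the reads of the library that fell in genes. MCL1, which binds BIM and BAK1 and keeps T cells alive, was at an RPKM of 65.1 and 66.5 in the RbHiTn libraries and 40.4 and 37.3 in the RbLoTem libraries (without and with the suffix o, in this order throughout). Both RbLoTem libraries were below both RbHiTn libraries. The means were 65.8 ± 0.922 and 38.85 ± 2.24 (SD, n = 2 libraries each), a log2FC of -0.75 (SE 0.06, edgeR adjusted p = 1.8e-11). Each SE, the standard error, was taken as log2FC, the log2 fold change of RbLoTem over RbHiTn, divided by the root of its F value. The model rests on 2965 and 1808 exon reads in the 2 subsets, all of which matched a single place. Reads that crossed an exon junction gave 1.6-fold less MCL1 in RbLoTem cells (95% counting interval 1.48 to 1.74) and reads within exons gave 1.77-fold less (1.63 to 1.92). Counting intervals are exact binomial ones and cover counting error only. The files place the human MCL1 model at chr1:150547032-150552066, in a build they do not name.

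BAX, which forms pores in the outer mitochondrial membrane when activated, went the other way. Its RPKM was 61.5 and 60.1 in RbHiTn cells and 83.5 and 84.5 in RbLoTem cells. The 2 groups were well apart, since libraries of a subset differed by less than 2 RPKM. BAX had a log2FC of 0.47 (SE 0.07, edgeR adjusted p = 3.6e-07), or 1.39-fold. Junction reads made up 90.0% of the BAX reads and gave 1.36-fold more in RbLoTem cells (95% counting interval 1.27 to 1.45). The human BAX model is at chr19:49458072-49465055. BAK1, the other effector, had 1 and 0 reads in RbHiTn cells and 1 in each RbLoTem library. With 0 reads a library allows up to 3 reads, an RPKM of 0.316 for BAK1, so no difference in BAK1 was detectable at this depth.

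The ratio of BAX to MCL1 within a library does not depend on how libraries are scaled. BAX was at 0.945 and 0.905 times the RPKM of MCL1 in RbHiTn cells and at 2.07 and 2.27 times in RbLoTem cells. The ratio was thus 2.34-fold higher in RbLoTem cells, and no library of a subset lay in the range of the other. Summed over the 6 pro-apoptotic BCL2 family members, RPKM was 66.9 and 65.3 in RbHiTn cells and 85.1 and 85.7 in RbLoTem cells, of which BAX made up at least 92.0% in every library. Summed over the 3 anti-apoptotic members it was 67.5 and 70.5 against 43.5 and 42.7, of which MCL1 made up 87.2% to 96.5%. These sums follow MCL1 and BAX and leave out other family genes, and since they compare different gene models they are given with no test.

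**Figure D2:**
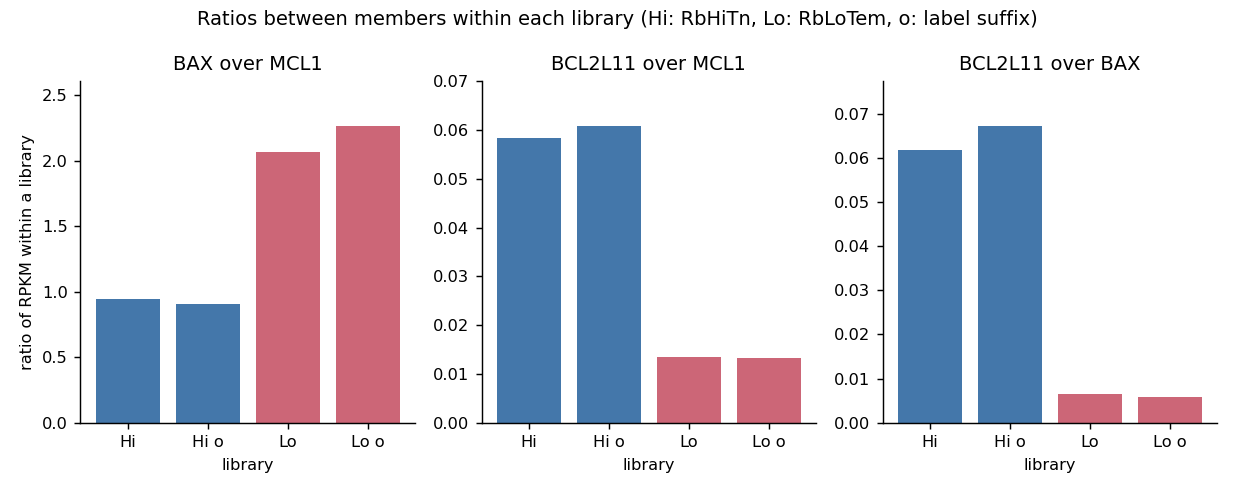
Ratio of RPKM between pairs of members within each of the 4 libraries (bars, linear axes from 0), for RbHiTn (Hi) and RbLoTem (Lo) libraries, where o marks the label suffix. BAX over MCL1 was 0.905 to 0.945 in RbHiTn and 2.07 to 2.27 in RbLoTem libraries, and both ratios of BCL2L11 were lower in RbLoTem libraries.

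The BH3-only genes that could be tested were lower in RbLoTem cells. BCL2L11, the gene of BIM, which binds all anti-apoptotic family members, showed the largest change of the 7 tested members with all 4 libraries, while without the RbHiTn library with suffix o BCL2L2 was farther from 0 (log2FC 3.36 against -2.89). It had 165 and 113 exon reads in RbHiTn cells and 17 and 21 in RbLoTem cells, an RPKM of 3.8 and 4.05 against 0.546 and 0.490. Even the lower RbHiTn library was far above the RbLoTem libraries. Its log2FC was -2.91 (SE 0.21, edgeR adjusted p = 4.4e-13), which is 7.52-fold lower in RbLoTem cells, and only 78 of the 6539 tested models had a more negative value. From the summed reads the ratio was 7.68 (95% counting interval 5.46 to 11.1). Junction reads numbered 105 and 61 against 8 and 14, an 8.07-fold difference (5.16 to 13.2), and reads within exons gave 6.91-fold (4.08 to 12.5). All reads matched a single place. The human model is at chr2:111876955-111926024. The log2FC lay between -2.98 and -2.82 when any single library was left out.

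BBC3, the gene of the stress-induced protein PUMA, had 14 and 12 reads in RbHiTn cells and 4 and 6 in RbLoTem cells, an RPKM of 0.850 and 1.13 against 0.339 and 0.369. The libraries of the subsets did not overlap. The log2FC was -1.41 (SE 0.50, edgeR adjusted p = 0.021), and the ratio of reads was 2.73 (95% counting interval 1.27 to 6.34). The call rested on few reads: DESeq2 gave an adjusted p of 0.24. It was also lost without the RbHiTn library with suffix o (log2FC -1.24, adjusted p = 0.098), without the RbLoTem library without the suffix (-1.36, 0.081) and without the RbLoTem library with it (-1.48, 0.10), all from edgeR.

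BAD, which is held inactive by growth factor signalling through AKT, had 6 and 0 reads in RbHiTn cells and 5 and 3 in RbLoTem cells. The libraries overlapped, and the ratio of RbLoTem to RbHiTn reads was 1.27 (95% counting interval 0.387 to 4.44). BMF, whose product is held at the cytoskeleton, had 2 and 1 reads in RbHiTn cells and 0 and 1 in RbLoTem cells, a ratio of 0.318 (0.00605 to 3.96). These 2 genes did not pass the filter on low counts, and their intervals hold changes in either direction.

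**Figure D3:**
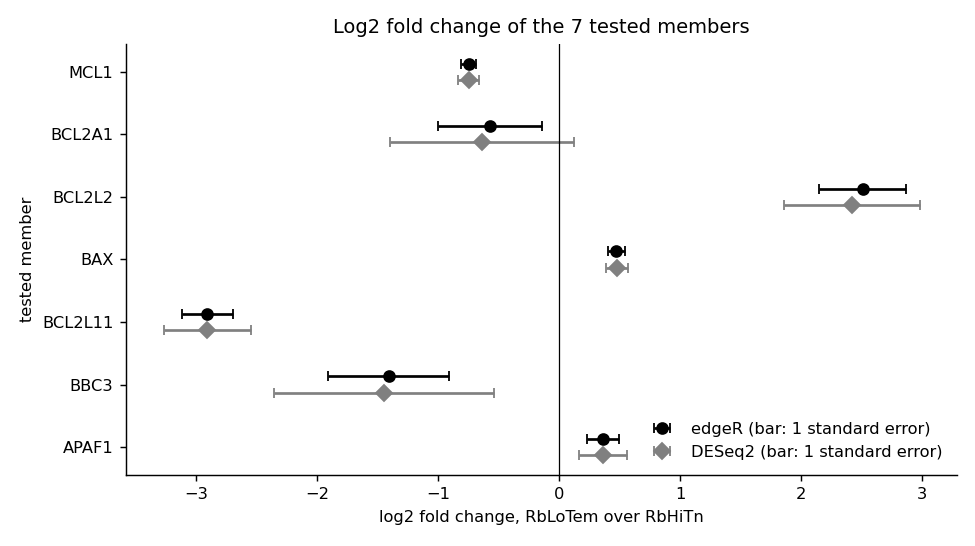
Log2 fold change of the 7 tested members, RbLoTem over RbHiTn, from edgeR (circles) and DESeq2 (diamonds), with bars of 1 standard error. BCL2L11 at -2.91 and BCL2L2 at 2.51 were farthest from 0, and the DESeq2 bars were wider than those of edgeR for all 7.

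The 3 anti-apoptotic members did not move together. BCL2L2, the gene of BCL-W, was higher in RbLoTem cells, with 7 and 14 exon reads in RbHiTn cells and 37 and 90 in RbLoTem cells. RPKM was 0.257 and 0.797 against 1.89 and 3.34, with wide spread between libraries and no overlap of the subsets. This gave a log2FC of 2.51 (SE 0.36, edgeR adjusted p = 6.6e-07). It was 1.77 without the RbHiTn library without the suffix and 3.36 without the RbHiTn library with it, and was called in each case. However, just 21.6% of the BCL2L2 reads were uniquely matched. The files also hold PABPN1 and the read-through model BCL2L2-PABPN1, which joins both genes. Uniquely matching reads numbered 1 and 5 in RbHiTn cells and 6 and 20 in RbLoTem cells, a ratio of 4.10 (95% counting interval 1.65 to 12.2), and were too few for the filter. PABPN1, an abundant poly(A)-binding protein gene, was at a log2FC of 0.10 (SE 0.06, adjusted p = 0.12). BCL2L2-PABPN1 had 28 and 8 reads against 51 and 15 (log2FC 0.87, SE 0.44, adjusted p = 0.11). With no filter edgeR gave it an adjusted p of 0.014, and only 2.94% of its reads were uniquely matched. The level of BCL2L2 is therefore uncertain. The human BCL2L2 model is at chr14:23767999-23780968.

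BCL2A1, an NF-κB target that is induced in activated lymphocytes and myeloid cells, had 15 reads in each RbHiTn library and 6 and 15 in the RbLoTem libraries. RPKM was 2.11 and 3.29 against 1.18 and 2.14, so the subsets overlapped. BCL2A1 had a log2FC of -0.57 (SE 0.43, adjusted p = 0.29), with a 95% interval from -1.41 to 0.27. Single libraries moved this value, to -0.26 without the RbLoTem library without the suffix, -1.11 without the RbLoTem library with it, -0.90 without the RbHiTn library without it and -0.30 without the RbHiTn library with it, and it was called in none of these cases. Mice have 4 copies of this gene on chromosome 9 (Bcl2a1a to Bcl2a1d) and the human table has 1 model, so reads of the copies cannot be told apart. Of these reads 19.6% crossed a junction.

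APAF1 was slightly higher in RbLoTem cells. It had 185 and 130 reads in RbHiTn cells and 186 and 230 in RbLoTem cells, an RPKM of 3.67 and 4.01 against 5.14 and 4.62. The libraries did not overlap, but the gap between the nearest libraries was only slightly wider than the gap within a subset. APAF1 had a log2FC of 0.36 (SE 0.13, edgeR adjusted p = 0.019), or 1.28-fold. The adjusted p was 0.18 by DESeq2, 0.18 without the RbHiTn library without the suffix (log2FC 0.29) and 0.12 without the RbLoTem library without the suffix (0.28). Its human model is at chr12:99039078-99129204.

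The order of the members by RPKM can also depend on how well mouse reads match each human model. By RPKM, MCL1 came first in RbHiTn cells, followed by BAX, BCL2L11, APAF1, BCL2A1 and BBC3. There BCL2L2, BAD, BMF and BAK1 were lowest and overlapped one another in part. BCL2L11 and APAF1 overlapped in their libraries, at 3.8 to 4.05 and 3.67 to 4.01. In RbLoTem cells BAX came first, followed by MCL1, APAF1, BCL2L2, BCL2A1 and BCL2L11. There BCL2L2 and BCL2A1 overlapped, and BCL2L11, at 0.490 to 0.546, overlapped with BAD at 0.273 to 0.626. BCL2L11 went from 0.0584 and 0.0609 times the RPKM of MCL1 in RbHiTn cells to 0.0135 and 0.0132 times in RbLoTem cells. Its fall was thus steeper than that of MCL1, and the ratio was at 0.224 of its RbHiTn mean.

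**Figure D4:**
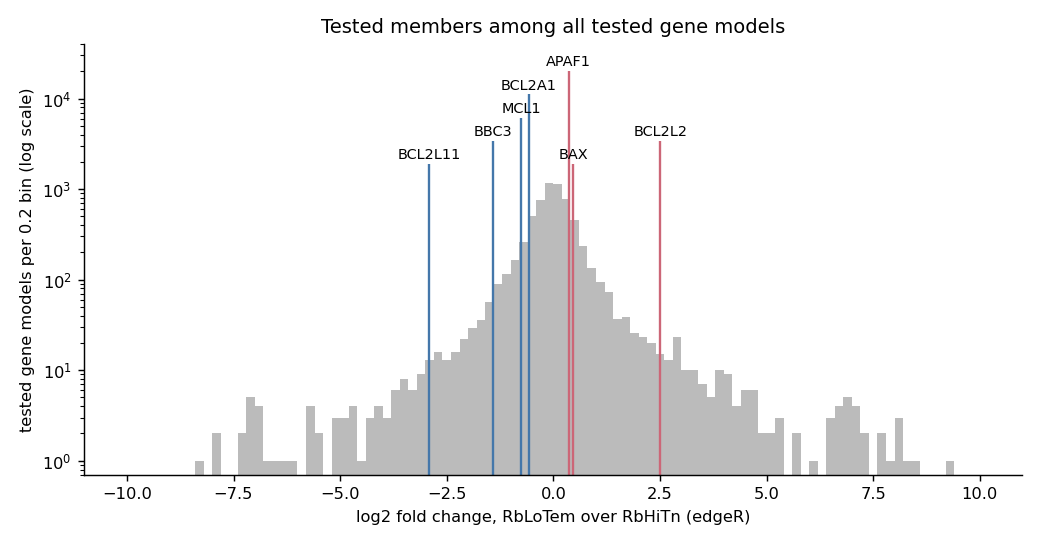
Histogram of the log2 fold change of all 6539 tested models (RbLoTem over RbHiTn, edgeR, bins of 0.2, log scale on the vertical axis), with lines at the 7 tested members. BCL2L11 at -2.91 and BCL2L2 at 2.51 lie in the tails, and BAX, APAF1, MCL1 and BCL2A1 lie within 1 of 0.

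Other genes of the pathway were examined in 7 lists. Their counts are to be read against the 24.3% of all tested models called higher and the 23.6% called lower by edgeR, and no list was tested as a group. BCL2, BCL2L1 and BID, the genes of BCL-2, BCL-XL and BID, and PMAIP1, the gene of NOXA, were not among the models used here, nor were CYCS, XIAP and FAS. Of 16 other family genes 9 had a model and 3 were tested, BNIP1, BNIP2 and BNIP3L. None was called by edgeR or DESeq2, none had an unadjusted p under 0.05 by edgeR, and BNIP3L, a mitophagy receptor gene, was at a log2FC of -0.16 (SE 0.09, adjusted p = 0.15). The models of BCL2L10, BCL2L12, BCL2L14, BCL2L15, BOK and HRK had 0 reads in all libraries. This does not show that the mouse genes were silent.

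Of 17 genes of the apoptosome and caspases 4 were tested, and 3 were lower and 1 higher, against 2 lower and 0 higher by DESeq2. CASP2, the gene of an initiator caspase, was at 219 and 118 reads in RbHiTn cells and 101 and 116 in RbLoTem cells, a log2FC of -0.67 (SE 0.15, adjusted p = 0.00029). The caspase substrate genes ACIN1 and PARP1 were at -0.30 and -0.19 (SEs 0.06 and 0.07). CASP6, an executioner caspase gene, had 8 reads in each RbHiTn library and 24 in each RbLoTem library, a log2FC of 1.53 (SE 0.41, adjusted p = 0.0022). The calls of CASP6 and PARP1 were lost without the RbHiTn library without the suffix (adjusted p = 0.073 and 0.34) and by DESeq2 (0.080 and 0.16), and that of PARP1 also without the RbLoTem library without it (0.29). CASP9, whose product APAF1 recruits, had 3 and 0 reads in RbHiTn cells and 0 and 3 in RbLoTem cells.

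Of 10 genes of the IAP family, of which only some members restrain caspases directly, and their antagonists 5 were tested, with 2 lower and 1 higher. BIRC2, the gene of cIAP1, was lower with a log2FC of -0.79 (SE 0.16, adjusted p = 8.5e-05). HTRA2, a mitochondrial protease gene whose product can displace IAPs, was higher at 0.52 (SE 0.10, adjusted p = 5.0e-05). BIRC5, the gene of survivin, was called at -0.41 (adjusted p = 0.048), and the adjusted p reached 0.54 without the RbLoTem library with the suffix, 0.15 without the RbHiTn library without it and 0.11 without the RbHiTn library with it, and was 0.35 by DESeq2. BIRC3, the gene of cIAP2, had a log2FC of -0.22 (SE 0.36). In the death receptor list 5 of 17 genes were tested (RIPK1, TNFRSF1B, DAXX, FASLG and CYLD). None was called by edgeR or DESeq2 and none had an unadjusted p under 0.05 by edgeR, while edgeR called 1 gene of the list higher with no filter and 1 lower with total gene reads. RIPK1, the gene of a kinase that acts downstream of death receptors, had 24 and 6 reads in RbHiTn cells and 20 and 22 in RbLoTem cells, a log2FC of 0.45 (SE 0.38, adjusted p = 0.35). It was 1.40 (adjusted p = 0.054) without the RbHiTn library without the suffix and 0.03 (adjusted p = 0.96) without the RbHiTn library with it.

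Of 12 genes that act on the stability of MCL1 protein 6 were tested, with 3 higher, 1 lower and 2 not called, where 24.3% and 23.6% of all tested models were called higher and lower. The genes not called were CUL1, a ligase scaffold gene (log2FC 0.05, adjusted p = 0.54), and GSK3B, a kinase gene (0.18, 0.079). FBXW7, a ubiquitin ligase subunit gene for MCL1, had 377 and 253 reads in RbHiTn cells and 396 and 621 in RbLoTem cells, a log2FC of 0.63 (SE 0.09, adjusted p = 8.8e-07). GSK3A, the gene of a kinase of the family that marks MCL1 for this ligase, was at 0.27 (SE 0.06). UBE2S, a ubiquitin-conjugating enzyme gene, was at 0.21 (SE 0.06). Uniquely matched reads made up 50.9% for GSK3A and 61.5% for UBE2S, and with unique reads the values were 0.32 and 0.31. SKP1, a further ligase subunit gene, was at -0.24 (SE 0.06), and its call was lost without the RbLoTem library with the suffix (adjusted p = 0.076).

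Among 28 genes of factors that control BH3-only genes or their products, 17 were tested, with 6 higher and 5 lower, beside 24.3% and 23.6% over all models. The count of higher genes was 3 when either library that lacks the suffix was left out. FOXO3, the gene of a transcription factor that can induce BIM and PUMA, had 310 and 217 reads in RbHiTn cells and 159 and 238 in RbLoTem cells. FOXO3 was lower with a log2FC of -0.46 (SE 0.11, adjusted p = 0.0011). Just 31.9% of its reads were uniquely matched, and with unique reads edgeR gave a log2FC of -0.46 (adjusted p = 0.028). PPP1R13B, the gene of the pro-apoptotic protein ASPP1, was at -1.31 (SE 0.16, adjusted p = 5.5e-08) and MYB, a transcription factor gene, at -1.08 (SE 0.11, adjusted p = 4.1e-10). AKT1, the gene of the kinase that phosphorylates BAD and FOXO proteins, was higher at 0.48 (SE 0.06, adjusted p = 1.2e-08).

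Of 18 listed mitochondrial partners 13 were tested, with 5 higher and 1 lower, against 24.3% and 23.6% of all models, and 4 higher and 0 lower by DESeq2. HK2, the gene of a hexokinase that binds the outer mitochondrial membrane, was the largest, with 156 and 110 reads in RbHiTn cells and 378 and 561 in RbLoTem cells, a log2FC of 1.76 (SE 0.11, adjusted p = 1.0e-14). MFN1, a mitochondrial fusion gene, was at 0.58 (SE 0.14) and SLC25A4, an adenine nucleotide carrier gene, at 0.44 (SE 0.05). TMBIM6, the gene of BAX inhibitor 1, was the gene called lower, at -0.51 (SE 0.18, adjusted p = 0.020). Its adjusted p was 0.27 without the RbHiTn library without the suffix and 0.18 without the RbLoTem library with it (0.26 by DESeq2), and without the former 3 genes of this list were called higher. Median log2FC values of the 7 lists lay between -0.24 for the apoptosome and caspases and 0.20 for MCL1 turnover, against -0.012 over all tested models.

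**Figure D5:**
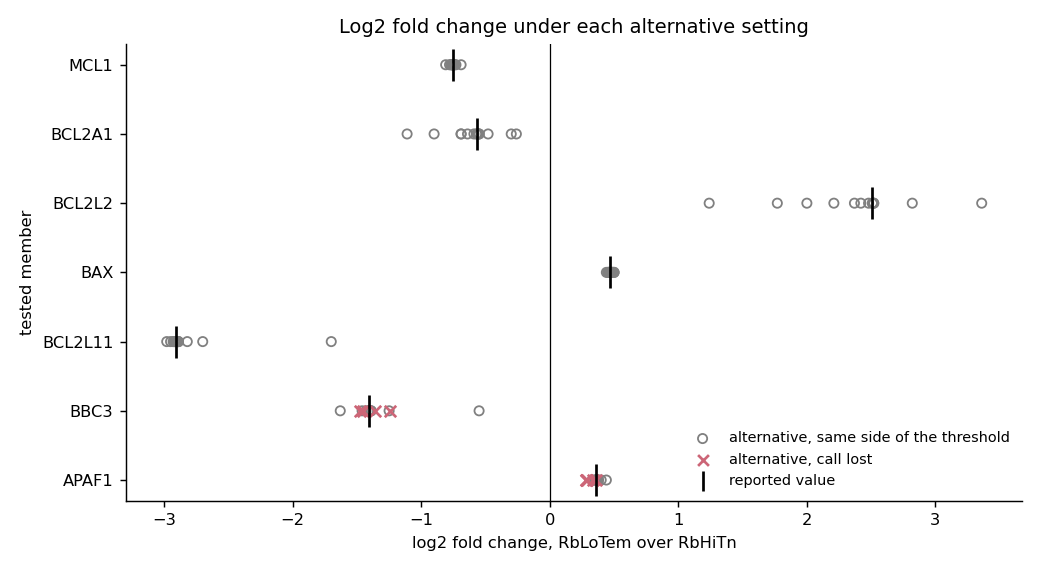
Log2 fold change of the 7 tested members (RbLoTem over RbHiTn) as reported (black line) and under each of up to 14 alternative settings (circles where the member stayed on the same side of the threshold, crosses where its call was lost). All values kept their sign, and calls were lost for BBC3 under 4 settings and for APAF1 under 5.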

How the data were processed

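RNA of 2 RbHiTn and 2 RbLoTem libraries was analysed. The study's methods name Trimmomatic, TopHat with mm10 and Gencode vM4, htseq-count, RPKM in R and DESeq2, and apart from Gencode and R these names also stand in the submitters' processing notes. The counts deposited by the authors have another layout, with reads per human gene model, and the program, annotation and strand setting behind them were named in no source used here. The RPKM values deposited by the authors could be recomputed from exon reads, exon length and the total of reads in genes (within 1% for all 34197 values above 0). The exon length column (another unit, bases) was used as deposited.

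Total exon reads were tested across all genes by the quasi-likelihood test of edgeR 4.0.16 (R 4.3.3) after TMM scaling and filterByExpr, without a block, and p-values were adjusted over the 6539 models by Benjamini-Hochberg. Alternatives dropped each library in turn, added the label suffix as a block, used unique or gene reads, changed the scaling, removed the filter, or replaced edgeR by DESeq2 1.42.0 or by limma 3.58.1 on log2 RPKM with a pseudocount of 0.1 or 1. The fits were tested on simulated counts before use. Replicates differed by more than sampling noise (chi-square per degree of freedom 2.12 in both subsets). The members and lists were chosen with earlier results of these data known. Named are all 10 members, up to 4 tested genes of each list by size of change, and 11 genes fixed by name, of which some are not reported here. CUL1, GSK3B, CYLD, PABPN1 and BCL2L2-PABPN1 were named after their values were seen. Mouse promoters are from RefSeq (GRCm38.p6), matched by symbol.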

Additional observations from a re-analysis of the deposited data

How the results depend on the processing

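Of the 7 tested members, MCL1, BCL2L11, BAX and BCL2L2 were called and BCL2A1 was not under every alternative that gave a value. BCL2L2 had none with unique reads, which left it below the filter. BBC3 lost its call under 4 of 14 alternatives and APAF1 under 5, as given above except limma, which gave APAF1 adjusted p values of 0.091 and 0.094. No member changed sign. The log2 fold change of BCL2L11 was -1.70 on log2(RPKM + 1), a scale that understates low genes, and between -2.98 and -2.70 otherwise. The same scale gave -0.55 for BBC3 and 1.24 for BCL2L2.

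Over all models DESeq2 called 991 lower and 1116 higher, against 1545 and 1592 by edgeR. Leaving out 1 library gave 1245 to 1395 higher and 1260 to 1337 lower. Of 196 list counts under alternatives 22 differed by over 1.5 times, by at most 3 genes. With the replicate block on the label suffix, 1562 were higher and 1530 lower, with 3 members each way. Deviations of same-suffix libraries correlated at -0.01. Replicate differences that are technical alone could give such a value for paired samples too, so it cannot tell whether the suffix marks pairs. BIRC5 lost its call with the block. BAK1, BAD and BMF are limited by depth.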
